A study of Mus musculus with 6 samples.

Results

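Histones are the proteins around which DNA is wound, and this report describes the 54 protein-coding histone genes in a table of 41721 genes counted in cultured mouse aortic smooth muscle cells (MASMCs). They were taken by gene name, using the symbols of the Hist1 to Hist4 clusters and the H1f, H2a, H2b, H3 and H4 symbols, and 1 further row with such a name was left out because it is an antisense RNA. Of the 54, 37 are replication-dependent genes of the clusters, and 17 are variant or testis genes outside this group (*Hist1h1t*, *Hist1h2aa* and *Hist1h2ba* were placed with the variants). MASMCs came from the abdominal aorta of C57BL/6J mice, and 6 libraries were sequenced, 3 from Pdk4fl/fl and 3 from Pdk4SMKO cells, all treated with Ang II, a vasoconstrictor peptide. The methods give mice of 10 weeks, passages 4 to 8, a dose of 1 µM and a time of 48 h. They also describe serum starvation of the cells for 48 h for experiments in culture. Pdk4fl/fl mice carry loxP sites around exons of *Pdk4*, a kinase that inhibits pyruvate dehydrogenase. Pdk4SMKO mice carry in addition the tamoxifen-induced Myh11-CreERT2 transgene, which drives the recombinase in smooth muscle, and tamoxifen was given to both genotypes. The supplement calls the libraries of a genotype biological replicates, without saying whether these were separate mice or separate cultures, and the p-values measure the spread between them.

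Chromatin is built from nucleosomes, in which pairs of H2A, H2B, H3 and H4 carry the DNA and the linker histone H1 sits at the entry and exit of the particle. Replication-dependent histone genes lie in clusters, are transcribed mainly in S phase, and give mRNAs that end in a conserved stem-loop in place of a poly(A) tail. The stem-loop binding protein SLBP and the U7 snRNP direct the cut that makes this end. Variant histones are encoded by single genes with polyadenylated mRNAs, are made throughout the cell cycle and are placed by their own chaperones, so that non-dividing cells such as contractile smooth muscle rely on them.

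The stem-loop is shown here for the genes with the largest levels or differences, because it sets the mRNA end that distinguishes the replication-dependent group. The sequences come from GENCODE M21 transcripts (GRCm38), each read 5′ to 3′ on the mRNA strand with the 16 bases of the stem-loop in capitals.
Hist1h4i: taaaGGCCCTTTTTAGGGCCaccaca
Hist1h4j: taaaGGTCCTTTTCAGGACCaccaca
Hist1h4c: aaaaGGCCCTTTTCAGGGCCacccac
Hist1h1c: aaaaGGCTCTTTTCAGAGCCaccact
Hist1h2bm: caaaGGCTCTTTTCAGAGCCactaag
H2afx: caaaGGCCCTTTTAAGGGCCaccacc
The pattern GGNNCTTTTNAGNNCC, searched on the mRNA strand of the longest transcript, was present in 26 of the 37 replication-dependent genes (70.3%). It was in 3 of the 17 others (17.6%), namely *H2afx*, *Hist1h1t* and *H2bfm*. Among all protein-coding genes, where any protein-coding transcript of a gene could hold it, it was in 72 of 21901 (0.329%). The transcript models of *Hist1h1a*, *Hist1h4k* and *Hist2h2be* did not hold these letters. Of the 26 models that did, 10 ended within 60 bases after the stem-loop and 16 ran on further, as the models of *Hist1h4i* (330 bases further) and *Hist1h1c* (840 bases further) do.

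Totals of 16526044 to 22481670 reads were counted per library, and a count of 3, taken as the floor of detection, stood for 0.132 to 0.227 CPM (counts per library total, with that total adjusted by edgeR's TMM factors). *Pdk4* itself fell from 34.98 ± 3.07 (SD, n = 3) CPM to 6.93 ± 2.11 (SD, n = 3) CPM in Pdk4SMKO cells. The genotypes differed across much of the transcriptome: of 14085 genes tested, 3733 were lower and 4616 higher in Pdk4SMKO cells at an adjusted p under 0.05 with at least a 2-fold change (edgeR quasi-likelihood test, Benjamini-Hochberg), and the median log2 fold change was 0.12. With library size in place of TMM, 2390 were lower and 6184 higher, and the median moved up by 0.61. Of 8 smooth muscle markers, *Acta2*, *Myh11*, *Lmod1* and *Des* were higher and *Tagln*, *Cnn1* and *Smtn* were lower, and their summed CPM overlapped (785 to 811 in Pdk4fl/fl, 723 to 954 in Pdk4SMKO). Of 7 tested macrophage markers, 6 were higher and 1, *Cd68*, was lower. Of the 6, *Adgre1*, *C1qa*, *C1qb*, *C1qc* and *Tyrobp* were at 0 in every Pdk4fl/fl library, *C1qa* for example having 125, 58 and 35 counts in Pdk4SMKO libraries, while the sum of all 8 macrophage markers, with *Cd68* the most abundant in Pdk4fl/fl, overlapped (21.4 to 37.99 against 11.8 to 38.7 CPM). Sums were 626 to 855 against 5180 to 7082 CPM for 8 fibroblast markers, 74.2 to 99.99 against 723 to 1325 for 8 mesothelial markers, and 14.1 to 23.7 against 2.94 to 5.62 for 8 endothelial markers, of which *Cldn5* was at 0 in every library. Of 7 tested fibroblast markers, 4 were higher, 1 was lower and 2 were not called. All 7 tested mesothelial markers were higher, and the 2 tested endothelial markers were lower. *Xist*, the RNA of the inactive X chromosome in females, had 3 to 5 counts in Pdk4fl/fl and 321 to 610 in Pdk4SMKO libraries, although the methods describe the Cre transgene as Y-linked. Genotype, cell make-up and the source of the cells therefore cannot be told apart in what follows, nor can fewer cells of a type from less RNA per cell.

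Replication-dependent H4 and H1 mRNAs were lower in Pdk4SMKO cells, while most H2A and H2B mRNAs that could be tested did not pass the test. Reads fell on 44 of the 54 histone genes, 32 of them replication-dependent, and 23 passed the filter on low counts, 13 replication-dependent and 10 variant. Of all 23, 12 were called in either direction (59.3% of all tested genes were) and 16 did not overlap (81.8% of all tested genes did not). Among the 13, 8 were lower (26.5% of all tested genes were) and 1 was higher (32.8% of all tested genes were), with log2 fold changes from -6.01 to 2.24 and a median of -2.12. The median was -1.52 with library size alone, and over 32 genes it was -1.29 with no filter on low counts and -1.41 by DESeq2. All 5 tested H4 genes and all 3 tested H1 genes were lower, none of 3 H2A genes passed, 1 of 2 H2B genes was higher, and no cluster H3 gene taken by name reached the filter. Of these 8 lower genes, 6 passed the filter through the Pdk4fl/fl libraries, where they are high, and *Hist2h2be* passed through the Pdk4SMKO libraries, so for them the direction is partly set by the filter and the counts and the median are a description. *Hist1h4i* and *Hist1h1c* reached the limit of the filter in every library. The counts of 8 lower and 1 higher were the same with RLE factors, upper-quartile factors and library size alone. A filter of at least 10 counts in every library, which leaves out genes that fell to a few counts, kept 2 of the lower genes, *Hist1h1c* and *Hist1h4i*, and turned the median to 0.29.

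**Figure D1:**
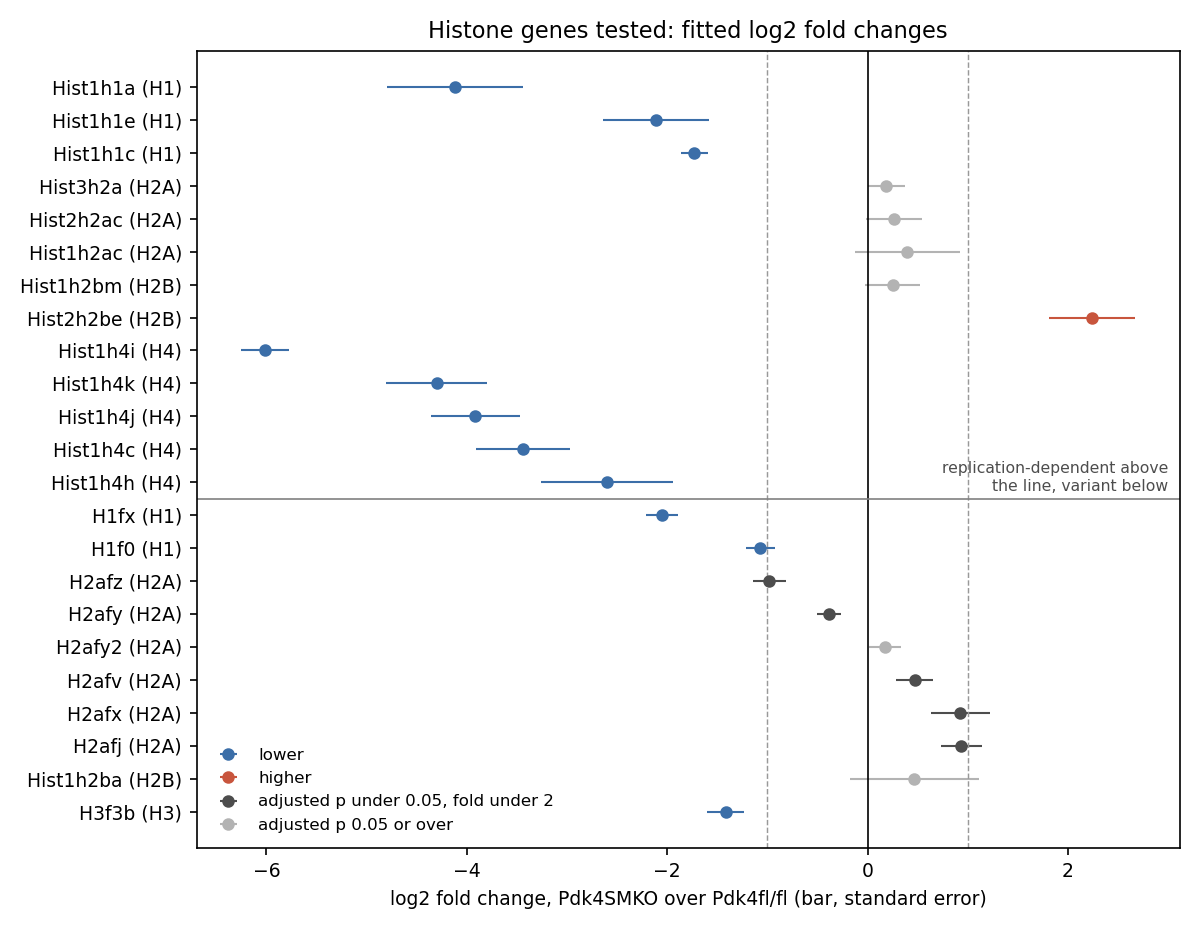
Fitted log2 fold change (x axis, Pdk4SMKO over Pdk4fl/fl) of the 23 tested histone genes, with the family in brackets, bars for the standard error, dashed lines at a 2-fold change and colours for the call. The 5 H4 and 3 replication-dependent H1 genes lie left of the dashed line, from -6.01 to -1.73, whereas the replication-dependent H2A genes lie between 0.19 and 0.40.

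*Hist1h4i* was the histone gene with the most negative log2 fold change. It encodes histone H4, the partner of H3 in the core of the nucleosome, and lies on chromosome 13 from 20041937 to 20043288 on the minus strand in the deposited table (MGP_C57BL6NJ_G0020693, whose identifiers follow Ensembl's C57BL/6NJ annotation). Counts were 1393, 2172 and 2050 in Pdk4fl/fl and 50, 36 and 34 in Pdk4SMKO libraries. In CPM these were 92.9, 119 and 155 against 2.20, 1.79 and 1.67. Every Pdk4SMKO library was far below the lowest Pdk4fl/fl library, with a log2 fold change of -6.01 ± 0.24 (SE) and an adjusted p of 2.17e-08 (edgeR). In its longest GENCODE M21 transcript, 15.1% of the 100-base windows also occur in another gene, and how reads that match several genes were counted is not given in the sources used here.

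The other 4 tested H4 genes had far lower levels and were lower as well. They passed the filter through the Pdk4fl/fl libraries, where they are high, so their direction is partly set by the filter. Per kilobase of gene model, *Hist1h4i* stood at a mean of 168 CPM in Pdk4fl/fl cells and the other 4 tested H4 genes at 2.59 to 5.40 CPM. For *Hist1h4j*, 33, 31 and 28 reads were counted in Pdk4fl/fl and 3, 2 and 3 in Pdk4SMKO libraries, and for *Hist1h4k* 26, 33 and 20 against 1, 2 and 2, so that in both the Pdk4SMKO libraries were at or under the floor. Against that floor of 3 counts per library the level was at least 14.1-fold lower for *Hist1h4j* and at least 11.8-fold lower for *Hist1h4k* (adjusted p 1.65e-05 and 1.8e-05, edgeR). *Hist1h4c* had 32, 29 and 29 counts against 2, 5 and 4, with a log2 fold change of -3.44 ± 0.47 (SE). *Hist1h4h* had 12, 16 and 29 counts against 9, 2 and 2, with a log2 fold change of -2.60 ± 0.66 (SE), and in CPM its genotypes did not overlap. Windows of 100 bases shared with other genes made up 64.3% of the *Hist1h4k* transcript and 38.5% of that of *Hist1h4h*, so reads may be split between copies or left uncounted, and how far the levels depend on this was not tested. Summed over all 13 H4 genes, the level was 101, 128 and 166 CPM in Pdk4fl/fl and 3.60, 2.79 and 2.45 CPM in Pdk4SMKO libraries. Without *Hist1h4i* the H4 sum was 8.60, 8.51 and 10.4 CPM against 1.41, 0.995 and 0.785 CPM, again with no overlap. Of the 12 H4 genes with a count, 7 did not reach the filter. In CPM *Hist1h4a* (11, 18 and 8 counts against 1, 2 and 1), *Hist1h4b*, *Hist1h4d* and *Hist4h4* were below in every Pdk4SMKO library, whereas *Hist1h4f* (0, 2 and 2 counts against 1, 3 and 2), *Hist1h4n* and *Hist2h4* overlapped.

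**Figure D2:**
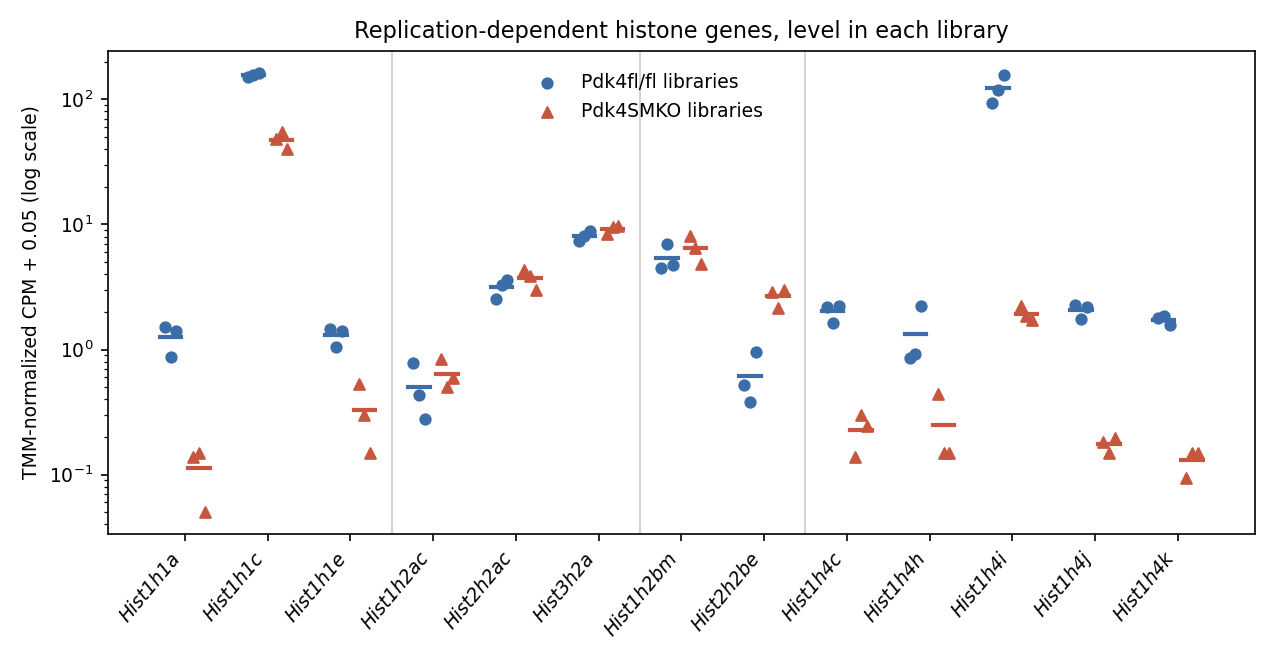
Level of each tested replication-dependent histone gene in each library (y axis, TMM-normalized CPM plus 0.05 on a log scale), in the order H1, H2A, H2B and H4, with horizontal lines at the genotype means. *Hist1h4i* falls from a mean of 122 to 1.88 CPM and *Hist1h1c* from 157 to 47.3 CPM, while the points of *Hist1h2ac*, *Hist2h2ac*, *Hist3h2a* and *Hist1h2bm* overlap.

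All 5 tested linker histone genes, 3 replication-dependent and 2 variant, were lower under TMM scaling (26.5% of all tested genes were). *Hist1h1a* and *Hist1h1e* passed the filter through the Pdk4fl/fl libraries, where they are high, so their direction is partly set by the filter. *Hist1h1c*, which encodes H1.2, a somatic linker histone, had 151, 157 and 163 CPM in Pdk4fl/fl and 47.8, 54.3 and 39.7 CPM in Pdk4SMKO libraries. The log2 fold change was -1.73 ± 0.14 (SE; adjusted p 1.39e-06, edgeR), and the genotypes did not overlap. *Hist1h1e*, which encodes H1.4, had 21, 18 and 18 counts against 11, 5 and 2 (log2 fold change -2.12 ± 0.53, SE; adjusted p 0.00369, edgeR). *Hist1h1a*, which encodes H1.1, gave 22, 15 and 18 reads in Pdk4fl/fl and 2, 2 and 0 in Pdk4SMKO libraries, which against the floor is at least 8.53-fold lower (adjusted p 2.09e-04, edgeR). The remaining cluster H1 gene, *Hist1h1b*, with 3, 13 and 6 counts against 12, 5 and 2, overlapped and was not tested. Per kilobase of gene model, *Hist1h1c* stood at a mean of 100.5 CPM in Pdk4fl/fl and 30.3 CPM in Pdk4SMKO cells, whereas *Hist1h1a* and *Hist1h1e* stood at 1.90 and 1.67 CPM in Pdk4fl/fl cells.

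Of the 5 tested H2A and H2B genes of the clusters, 4 did not pass the test and 1 was higher. *Hist3h2a*, an H2A gene on chromosome 11, had 7.27, 7.96 and 8.85 CPM in Pdk4fl/fl and 8.25, 9.51 and 9.66 CPM in Pdk4SMKO libraries, which overlap (log2 fold change 0.19 ± 0.18, SE; adjusted p 0.364, edgeR). *Hist1h2bm*, an H2B gene of the same cluster as *Hist1h4j*, had 67, 127 and 62 counts against 183, 130 and 97 (log2 fold change 0.25 ± 0.27, SE; adjusted p 0.415, edgeR). *Hist2h2ac* (0.26 ± 0.28, SE) and *Hist1h2ac* (0.40 ± 0.52, SE) also overlapped and missed the threshold, which does not show that their levels were equal. With library size alone, *Hist2h2ac*, *Hist3h2a* and *Hist1h2bm* had log2 fold changes of 0.87, 0.80 and 0.86 and passed the adjusted p threshold (0.0141, 0.00201 and 0.0158, edgeR), with a change under 2-fold. *Hist2h2be*, an H2B gene studied as a replacement histone of olfactory neurons, was the only tested cluster gene that was higher with all 6 libraries; without Pdk4fl/fl replicate 3, *Hist1h2bj* was tested and higher too. It had 7, 6 and 12 counts in Pdk4fl/fl and 65, 42 and 60 counts in Pdk4SMKO libraries, every one of the latter above every one of the former in CPM, with a log2 fold change of 2.24 ± 0.43 (SE; adjusted p 6.84e-04, edgeR). *Hist2h2be* passed the filter through the Pdk4SMKO libraries, where it is high, so its direction is partly set by the filter. None of its 100-base windows occurs in another gene. Summed over both families, cluster H2A and H2B genes stood at 16.6, 21.6 and 21.3 CPM against 27.4, 24.04 and 22.4 CPM, slightly above in every Pdk4SMKO library.

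The balance between the families can be read within each library, where the scaling of the library drops out. The H4 sum was 6.11, 5.92 and 7.79 times the H2A and H2B sum in Pdk4fl/fl libraries and 0.131, 0.116 and 0.109 times it in Pdk4SMKO libraries. With *Hist1h4i* left out, the ratios were 0.518, 0.394 and 0.491 against 0.0513, 0.0414 and 0.035. Both sets of ratios were apart by far more than their spread within a genotype. H3 could not be set beside H4, since the 3 cluster H3 genes taken by name held a sum of 0.378 to 1.20 CPM in Pdk4fl/fl and 0.147 to 0.498 CPM in Pdk4SMKO libraries. Other cluster genes of mouse, among them several H3 genes, were not taken by name. An unnamed row described as H3.2, between *Hist2h2be* and *Hist2h4*, had 14, 8 and 7 counts against 53, 28 and 22. It was higher (log2 fold change 1.34 ± 0.46, SE; adjusted p 0.0213, edgeR). Another row so described, with 0, 4 and 5 counts against 23, 7 and 7, overlapped and was not tested. These unnamed rows were looked up after the values of the named genes were seen.

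**Figure D3:**
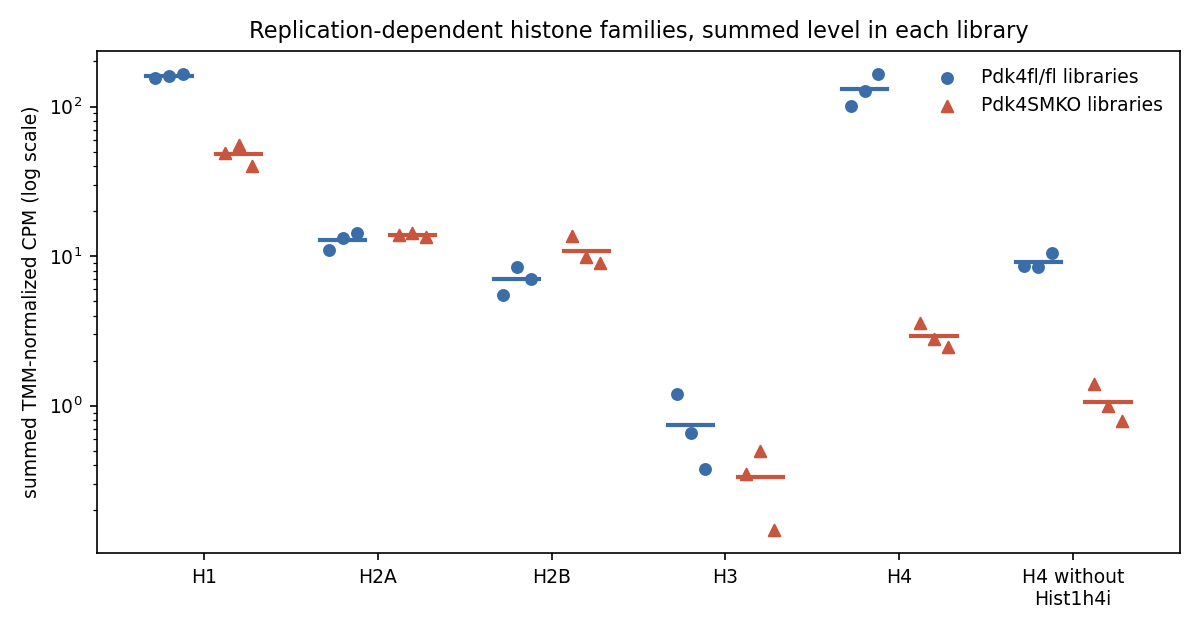
Summed level of the replication-dependent genes of each histone family in each library (y axis, TMM-normalized CPM on a log scale), with horizontal lines at the genotype means. The H4 sum goes from a mean of 132 to 2.95 CPM, the H1 sum from 160 to 47.9 CPM and the H2A sum from 12.8 to 13.8 CPM.

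The total over the 37 replication-dependent genes was 273, 309 and 353 CPM in Pdk4fl/fl and 80.2, 82.3 and 65.0 CPM in Pdk4SMKO libraries. *Hist1h1c* and *Hist1h4i* together held 89.5% of it in Pdk4fl/fl and 64.9% in Pdk4SMKO cells, the share of *Hist1h4i* being 39.3% and 2.49%. Without these 2 genes the total was 29.5, 33.3 and 35.3 CPM against 30.3, 26.1 and 23.5 CPM, and the genotypes overlapped. As a share of all counts this remainder was 0.0025% to 0.0028% in Pdk4fl/fl and 0.0029% to 0.0038% in Pdk4SMKO libraries. It was thus above in every Pdk4SMKO library without TMM scaling. Of the 32 genes with a count, which include untested genes with few counts, 14 were below in every Pdk4SMKO library and 16 overlapped. Those above were 2, namely *Hist2h2be* and *Hist1h2be*. Of the 13 that were tested, 8 were below (38.3% of all tested genes were) and 1 was above (43.5% of all tested genes were). By cluster, 8 of 10 tested Hist1 genes were lower (26.5% of all tested genes were), 1 of 2 Hist2 genes was higher (32.8% of all were) and the Hist3 gene was not called. Of these 8 Hist1 genes, 6 passed the filter through the Pdk4fl/fl libraries, where they are high, and *Hist2h2be* passed through the Pdk4SMKO libraries. Their direction is partly set by the filter, so these counts are a description. The mRNAs of replication-dependent genes typically lack a poly(A) tail, as do most RNAs of some other classes. However, 16 of the 26 transcript models with a stem-loop run on past it. Whether the reads came from forms with or without a tail was not tested. The summed snoRNA level was 140 to 166 CPM in Pdk4fl/fl and 52.9 to 71.6 CPM in Pdk4SMKO libraries. Of 44 tested snoRNA genes, 24 were lower (26.5% of all tested genes were) and 10 higher (32.8% of all were). As a share of all counts snoRNAs held 0.0113% to 0.013% against 0.0064% to 0.009%. The misc_RNA sum was 37.5 to 80.3 against 8.69 to 10.9 CPM, or 0.0031% to 0.0063% against 0.0011% to 0.0013% of all counts. The rRNA sum was 3.19 to 5.40 against 2.50 to 3.07 CPM, or 0.0003% to 0.0005% against 0.0003% to 0.0004% of all counts. The sums of scaRNA overlapped (2.14 to 3.41 against 1.45 to 2.19 CPM). The snRNA sum was 25.4 to 27.997 against 13.6 to 16.0 CPM, but as a share of all counts it was 0.0020% to 0.0023% against 0.0017% to 0.0020%, because TMM scaling lowers the sum over all genes to 0.657 times its Pdk4fl/fl value. The part of RNA selection in the histone result was not tested.

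Promoter sequences are given for a strongly lower H4 gene, the leading H1 gene and an H2B gene that was not called, since the families differ in promoter letters as well as in level. The RefSeq table for GRCm38.p6 held 34 replication-dependent and 15 variant promoters, each of 250 bases before and 50 after the start. The 250 bases before the start are printed 5′ to 3′ on the strand of the gene. Capitals mark TATAAA (letters of the TATA box) and CCAAT (letters of the CCAAT box) on either strand, together with the octamer ATTTGCAT. Matches were taken at any distance from the start within the window. Whether a match is a working TATA or CCAAT box was not tested. *Hist1h4i* is at chr13:22041363-22041612 (minus strand), *Hist1h1c* at chr13:23738557-23738806 (plus strand) and *Hist1h2bm* at chr13:21721794-21722043 (plus strand).
Hist1h4i: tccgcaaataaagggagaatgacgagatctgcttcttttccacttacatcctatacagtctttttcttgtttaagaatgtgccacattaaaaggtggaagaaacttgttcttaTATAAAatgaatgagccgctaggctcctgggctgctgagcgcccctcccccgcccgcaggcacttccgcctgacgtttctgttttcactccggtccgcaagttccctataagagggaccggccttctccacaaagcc
Hist1h1c: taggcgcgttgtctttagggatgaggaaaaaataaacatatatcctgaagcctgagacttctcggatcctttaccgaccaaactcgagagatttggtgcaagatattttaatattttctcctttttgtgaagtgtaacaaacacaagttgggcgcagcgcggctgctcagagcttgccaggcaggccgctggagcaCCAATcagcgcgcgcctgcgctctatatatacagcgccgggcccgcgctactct
Hist1h2bm: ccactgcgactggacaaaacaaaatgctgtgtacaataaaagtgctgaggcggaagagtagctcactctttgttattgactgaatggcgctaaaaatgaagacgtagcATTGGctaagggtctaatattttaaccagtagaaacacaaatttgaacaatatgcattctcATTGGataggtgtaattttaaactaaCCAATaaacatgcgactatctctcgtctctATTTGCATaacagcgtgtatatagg
CCAAT or its complement was in 3 of 12 H4 promoters, in 4 of 4 H1, 7 of 7 H2A and 9 of 9 H2B promoters, and in 37.4% of all 32851 promoters of the table. The octamer ATTTGCAT was in 5 of 7 H2A and 3 of 9 H2B promoters, in 0 of 12 H4 and 0 of 4 H1 promoters, and in 1.74% of all. TATAAA was in 61.8% of the replication-dependent promoters, in 3 of the 15 variant ones and in 13.6% of all. These letters describe the windows and were not tested against the levels.

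Variant histone genes held most of the reads counted on histone genes. They took up 86.0%, 85.3% and 86.0% of the summed histone CPM in Pdk4fl/fl and 91.2%, 92.4% and 93.6% in Pdk4SMKO libraries. Of the 10 tested, 3 were lower, a share near that of all tested genes (26.5%), and 0 were higher (32.8% of all were). Of the rest, 2 had a negative and 3 a positive log2 fold change at an adjusted p under 0.05 with a change under 2-fold. Of all 14085 tested genes, 1499 and 1297 did so. The other 2 variant genes missed the threshold. The median log2 fold change was -0.11. By DESeq2 the count of higher genes was 0 too. With library size alone, 1 variant gene was lower and 3 were higher, and 1 was higher without Pdk4fl/fl replicate 3 (*H2afj*) or without Pdk4SMKO replicate 3 (*H2afx*).

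*H3f3b*, which encodes the replacement histone H3.3 placed at active genes and in non-dividing cells, had the highest level per kilobase of the histone genes in Pdk4fl/fl cells (354 CPM, beside 294 for *H1f0*) and a level close to that of *H1f0* in Pdk4SMKO cells (133 beside 140 CPM). Not divided by length, it had 640, 721 and 967 CPM in Pdk4fl/fl and 237, 329 and 306 CPM in Pdk4SMKO libraries. The genotypes did not overlap, and the log2 fold change was -1.42 ± 0.18 (SE; adjusted p 4.74e-05, edgeR). *H1f0*, which encodes H1.0, a linker histone that accumulates in differentiated cells, had 647, 642 and 727 CPM against 263, 350 and 345 CPM (log2 fold change -1.07 ± 0.14, SE; adjusted p 5.73e-05, edgeR). Both genes were no longer called with library size alone, where the median of all genes was 0.61 higher, and *H1f0*, close to the 2-fold limit, was not called with upper-quartile factors, with at least 10 counts in every library or without Pdk4SMKO replicate 1 either. *H1fx*, which encodes H1.10, had 23.0, 26.3 and 23.8 CPM against 6.28, 5.87 and 5.45 CPM (log2 fold change -2.05 ± 0.16, SE; adjusted p 1.13e-06, edgeR). Its span overlaps the antisense gene *Gm5577*, which had at most 19 counts in a library. Of the summed H1 level, *H1f0* made up 78.5%, 77.6% and 79.3% in Pdk4fl/fl and 82.6%, 85.2% and 88.4% in Pdk4SMKO libraries, and *Hist1h1c* 18.3%, 18.9% and 17.8% against 15.0%, 13.2% and 10.2%, so the make-up of the linker histone mRNAs differed as well as their amount.

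Among the H2A variants, *H2afz*, which encodes H2A.Z of promoter nucleosomes, had 167, 177 and 216 CPM in Pdk4fl/fl and 116, 80.2 and 86.8 CPM in Pdk4SMKO libraries. The fall of 0.98 on the log2 scale (adjusted p 2.91e-04, edgeR) lay just under the 2-fold limit, and 58.8% of its windows are shared with other genes. *H2afv*, the second H2A.Z gene, had 20.6, 24.1 and 33.1 CPM against 31.5, 37.8 and 38.3 CPM, which overlap, with a log2 fold change of 0.47 ± 0.18 (SE; adjusted p 0.0376, edgeR). *H2afy*, which encodes macroH2A1 of silent chromatin, had 134, 152 and 148 CPM against 109, 121 and 101 CPM (log2 fold change -0.39 ± 0.12, SE; adjusted p 0.0119, edgeR), and its sign turned with library size alone (0.22). *H2afx*, the variant phosphorylated at DNA breaks, had 6.00, 5.55 and 6.58 CPM against 16.2, 11.3 and 6.82 CPM, the lowest Pdk4SMKO library being just above the highest Pdk4fl/fl library (log2 fold change 0.93 ± 0.29, SE; adjusted p 0.0143, edgeR). *H2afj*, a variant known from senescent cells, had 13.5, 12.8 and 21.6 CPM against 30.3, 27.97 and 32.9 CPM (log2 fold change 0.93 ± 0.21, SE; adjusted p 0.00182, edgeR). The other tested variants, *H2afy2* (0.17 ± 0.16, SE), which encodes macroH2A2, and the testis gene *Hist1h2ba* (0.47 ± 0.64, SE), overlapped and missed the threshold. *H1foo* and *Hist1h1t* had at most 2 counts in a library, and 5 variant genes had none.

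**Figure D4:**
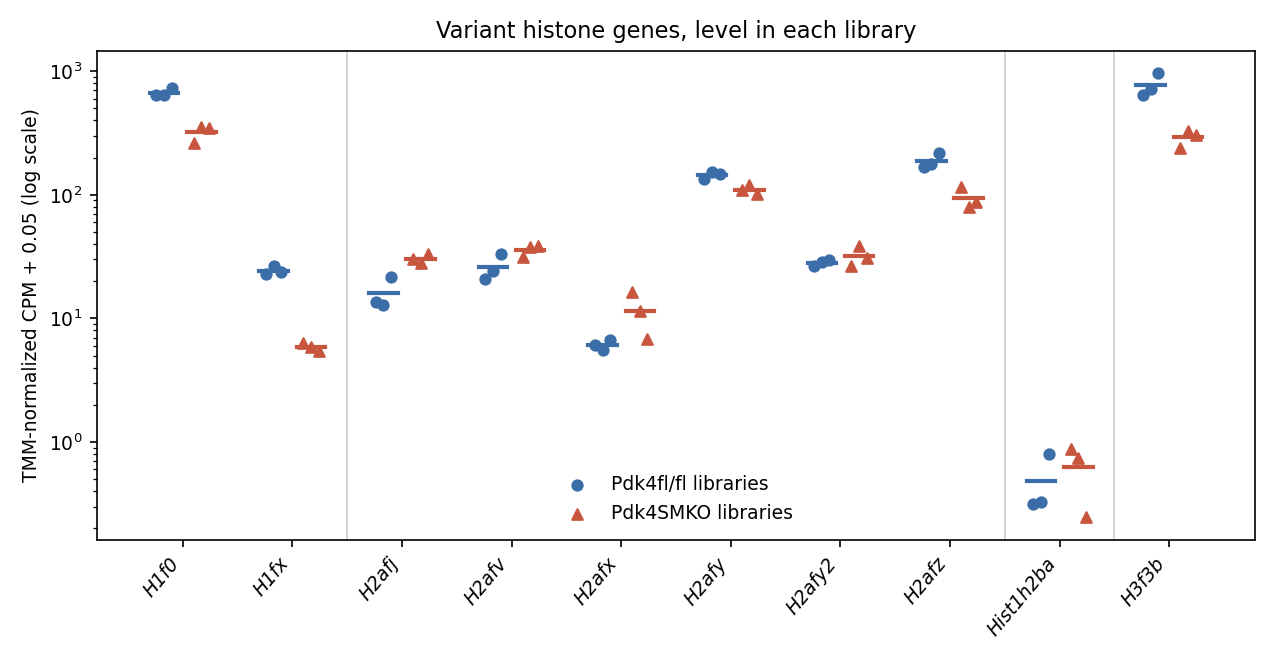
Level of each tested variant histone gene in each library (y axis, TMM-normalized CPM plus 0.05 on a log scale), in the order H1, H2A, H2B and H3, with horizontal lines at the genotype means. *H1f0*, *H1fx*, *H2afy*, *H2afz* and *H3f3b* are lower in every Pdk4SMKO library under TMM scaling, and *H2afj* and *H2afx* are higher in every one. With library size alone *H2afy* turns to 0.22 on the log2 scale.

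Among genes that process histone mRNA, *Slbp* and *Npat* were lower. Of 21 tested, 8 were lower and 2 higher (4 higher without Pdk4fl/fl replicate 2), beside 26.5% lower and 32.8% higher among all tested genes, with a median log2 fold change of -0.43 beside 0.12. *Slbp*, which encodes the stem-loop binding protein, had 74.9, 76.1 and 96.0 CPM in Pdk4fl/fl and 23.4, 20.8 and 19.9 CPM in Pdk4SMKO libraries (log2 fold change -1.95 ± 0.15, SE; adjusted p 8.85e-07, edgeR). *Npat*, the coactivator of histone gene transcription, fell by 1.08 and *Zfp473*, a U7 snRNP partner, by 2.17 on the log2 scale. *Ncbp1*, of the complex that binds the mRNA cap, and *Srrt*, a partner of that complex, fell by 1.81 and 1.76. *Upf1*, *Lsm1* and *Zcchc11*, which act in histone mRNA decay, fell by 1.24, 1.65 and 1.61. *Cstf2t*, a relative of the cleavage factor *Cstf2*, rose by 2.17 and *Coil*, the Cajal body scaffold, by 1.69. The U7 snRNP genes *Lsm10* (-0.43) and *Lsm11* (0.98) and the histone locus body gene *Casp8ap2* (0.15) were not called.

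Of 31 tested histone chaperone genes, 12 were lower (26.5% of all tested genes were) and 2 higher (32.8% of all were), with a median log2 fold change of -0.42. *Nasp*, a chaperone of H3 and H4 and of linker histones, had 169, 175 and 219 CPM against 22.7, 17.2 and 20.3 CPM (log2 fold change -3.22 ± 0.16, SE; adjusted p 6.64e-08, edgeR). The CAF-1 genes *Chaf1b* and *Chaf1a*, which load H3 and H4 behind the replication fork, fell by 2.93 and 1.45 on the log2 scale. *Hat1*, which acetylates new H4, fell by 1.599, *Ipo4*, which imports H3 and H4, by 1.47 and *Rbbp4* by 2.34. Of the complex that places H3.3 at active genes, *Ubn1* fell by 3.06 and its paralog *Ubn2* rose by 1.80, while *Hira* (0.38) and *Cabin1* (0.21) were not called. *Daxx*, which places H3.3 at repeats, fell by 1.31. *Asf1b*, the proliferation-linked ASF1 gene, rose by 1.505 and *Asf1a* (0.94) stayed under the 2-fold limit. Of the genes that handle H2A and H2B, *Ssrp1* fell by 1.29 and *Nap1l1* by 1.04, and *Anp32e* (0.42), which removes H2A.Z, was not called.

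DNA replication genes, whose activity sets the demand for new histones, were listed beside them. Of 35 tested, 15 were lower (26.5% of all tested genes were) and 2 higher (32.8% of all were), with a median log2 fold change of -0.88. *Mcm2*, a helicase subunit that also binds H3 and H4, had 481, 551 and 428 CPM against 79.2, 56.2 and 51.1 CPM (log2 fold change -2.97 ± 0.19, SE; adjusted p 2.82e-07, edgeR). *Pcna*, the sliding clamp, fell by 2.18 and the flap nuclease gene *Fen1* by 2.85 on the log2 scale. *Rrm2*, which supplies deoxynucleotides, rose by 1.94 and *Ccne2*, a cyclin of S phase entry, by 1.63. Markers of dividing cells did not move in 1 direction: *Mki67* had 146, 133 and 92.5 CPM against 97.2, 59.1 and 61.4 CPM, *Top2a* overlapped, *Ccnb1* and *Bub1* were lower and *Aurkb* was higher. Their part in the histone result was not tested. With library size alone the counts were 6 lower and 5 higher for processing genes and 6 lower and 7 higher for chaperones. For replication genes they were 8 lower and 4 higher. At that setting 2390 of all tested genes were lower and 6184 higher, so 27.9% of all calls were lower, beside 44.7% with TMM. The split of calls in each list thus moved with the scaling, as did that of all genes.

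**Figure D5:**
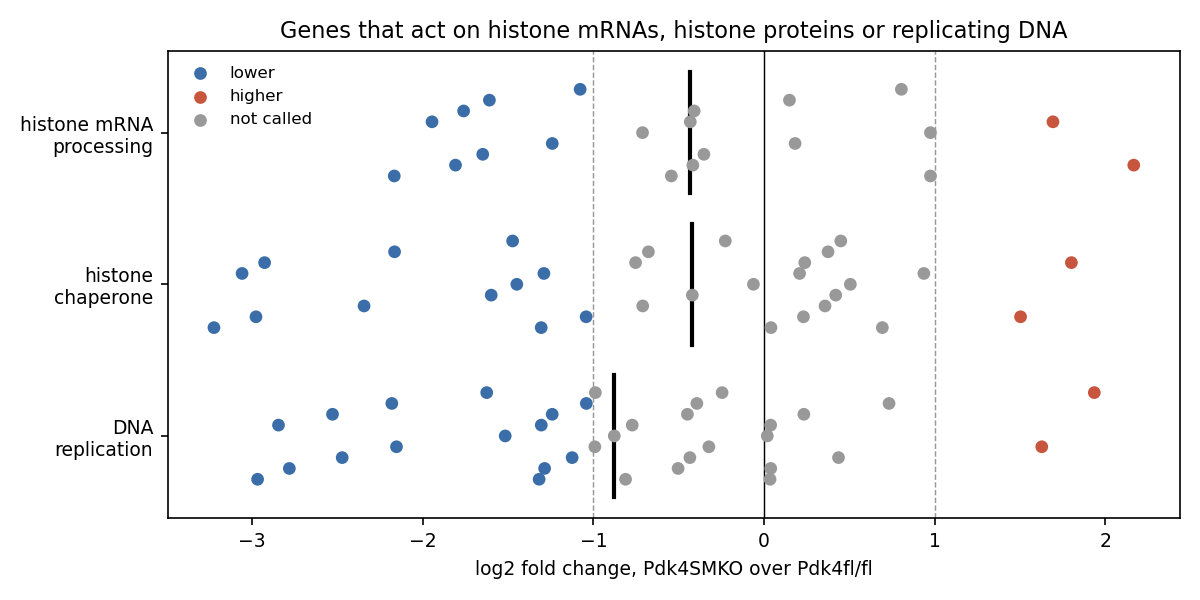
Log2 fold changes (x axis, Pdk4SMKO over Pdk4fl/fl, TMM scaling) of the tested histone mRNA processing, histone chaperone and DNA replication genes, each point a gene, spread vertically only for legibility, with a black bar at the median of each list and dashed lines at a 2-fold change. The medians lie at -0.43, -0.42 and -0.88. With library size alone the chaperones split into 6 lower and 7 higher, while 27.9% of the calls over all tested genes were lower.

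Chromatin proteins outside the name rule were measured as well. *Hmgn1*, a nucleosome-binding protein, was lower (log2 fold change -1.596 ± 0.14, SE; adjusted p 2.55e-06, edgeR), while *Hmgb1* (-0.29) and *Cenpa*, the centromeric H3 variant (0.27), were not called. No row carries the symbol *H3f3a*, the second H3.3 gene, but an unnamed row on chromosome 1 from 193292963 to 193298088 is described as H3.3. It had 266, 246 and 235 counts against 223, 282 and 331, or 16.3 ± 2.45 against 13.4 ± 3.28 CPM (SD, n = 3), with a log2 fold change of -0.29 ± 0.21 (SE; adjusted p 0.233, edgeR).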

How the data were processed

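RNA from 6 libraries of Ang II-treated MASMCs was sequenced as paired-end reads of 150 bases. The deposited values are raw counts, 1 column per library, that the authors had not normalized. The labels name a SMARTER kit and the methods a NEBNext Ultra kit. The labels name GRCm39, whereas the identifiers belong to Ensembl's C57BL/6NJ annotation. The aligner, the counting program and its use of strand are not given in the sources used here. Groups follow the genotype label.

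The genotypes were compared with edgeR 4.0.16 in R 4.3.3 (filterByExpr, TMM, quasi-likelihood test on genotype alone), and Benjamini-Hochberg adjustment covered all 14085 genes that passed the filter. Lower or higher means an adjusted p under 0.05 and at least a 2-fold change. The exact permutation test cannot give a p under 0.1 with 3 libraries against 3. Floors of 3 counts cover counting error alone. The members and lists were chosen with earlier results of these data known. Genes named were *Pdk4*, every tested variant gene, the 10 most abundant replication-dependent genes, tested genes of the lists, and markers beside a result. The 3 tested replication-dependent genes with the lowest and the 3 with the highest log2 fold changes were named too. *Hist1h4h*, also tested, falls outside these rules. *H3f3a*, *Gm5577*, *Xist* and untested members were named after their values were seen. Stem-loops were searched in the longest GENCODE M21 transcript of a histone gene. For the share over all protein-coding genes, every protein-coding transcript was searched. Promoters were taken from the first RefSeq entry. The fits were tested on simulated data. Other scalings (RLE, upper-quartile, library size), filters and call rules were tried, as were DESeq2 1.42.0, protein-coding genes alone, the replicate block and leaving out each library.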

Additional observations from a re-analysis of the deposited data

How the results depend on the processing

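DESeq2, RLE factors, protein-coding genes alone and an unadjusted p under 0.05 left the counts of calls within 1.5 times those reported. With upper-quartile factors, which moved the median of all genes by 0.21, 2 variant histone genes and 5 histone mRNA processing genes were higher. Library size alone, which moved it by 0.61, gave 2390 lower genes in all, 1 lower and 3 higher variant histone genes, 5 higher processing genes, 6 lower and 7 higher chaperone genes, and 8 lower and 4 higher replication genes, and the log2 ratio of the summed replication-dependent level moved from -2.04 to -1.43. Without a filter, 4 processing genes were higher. At least 10 counts in every library left 2 lower and 0 higher replication-dependent genes, 2 higher variant genes and 4 higher processing genes. At an adjusted p under 0.05 with any fold, 5 lower and 3 higher variant, 13 lower and 5 higher processing, 7 higher chaperone, and 23 lower and 4 higher replication genes were counted. Leaving out each library gave 2 to 4 higher processing genes (4 without Pdk4fl/fl replicate 2), 1 to 2 higher replication-dependent genes (2 without Pdk4fl/fl replicate 3) and 0 to 1 higher variant genes (1 without replicate 3 of either genotype). Among the 23 tested histone genes, *H2afz*, *H2afj*, *H2afx* and *H1f0*, all near the 2-fold limit, changed their call when a library was left out, and *H1f0* lost it without Pdk4SMKO replicate 1.

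The median of the variant genes turned to 0.10 with upper-quartile factors and 0.50 with library size alone, and that of the replication-dependent genes to 0.29 with at least 10 counts in every library. With library size alone the log2 fold change turned for *H2afy* (0.22), *Lsm10* (0.17), *Cpsf2* (0.26), *Sympk* (0.059), *Hinfp* (0.20), *Zcchc6* (0.18), *Rbbp7* (0.19), *Ep400* (0.54), *Ino80* (0.37), *Mcm6* (0.17), *Cdc45* (0.36), *Pola2* (0.10), *Pold1* (0.21), *Rfc3* (0.29), *Rfc5* (0.16) and *Hmgb1* (0.31). *Ep400* also turned with upper-quartile factors (0.15) and at least 10 counts (0.037), and *Ccne1* with RLE factors (-0.014), protein-coding genes alone (-0.0073) and the replicate block (-0.024). Without single libraries, ranges crossed 0 for *Cabin1* (-0.041 to 0.43), *Casp8ap2* (-0.0054 to 0.28), *Ccne1* (-0.25 to 0.24), *Cdc6* (-0.11 to 0.14), *Cenpa* (-0.084 to 0.43), *Dnajc9* (-0.072 to 0.16), *Ep400* (-0.22 to 0.053), *Gins4* (-0.050 to 0.12) and *Pole* (-0.18 to 0.16). None of these genes was called in the reported fit, and the cause was not tested.

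Libraries with the same replicate number deviated together with correlations of 0.040, 0.060 and 0.176, so the numbers were not taken as a pairing. With the replicate block, 3704 genes were lower and 4577 higher, and the block changed no call of a histone gene, giving 8 lower and 1 higher replication-dependent, 3 lower and 0 higher variant, 8 lower and 2 higher processing, 12 lower and 2 higher chaperone, and 15 lower and 2 higher replication genes. Depth limits the 21 histone genes with counts that were not tested, none of which had over 25 counts in a library.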

Other observations

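Rows outside the name rule whose description names a histone also held reads. Reads described as H3.3 did not all follow *H3f3b*. The processed copy MGP_C57BL6NJ_G0011314 on chromosome 13 from 110262045 to 110262452 had 9.47, 11.3 and 11.2 CPM in Pdk4fl/fl and 23.1, 27.5 and 36.1 CPM in Pdk4SMKO libraries (log2 fold change 1.44 ± 0.19, SE; adjusted p 5.86e-05, edgeR), and the copy MGP_C57BL6NJ_G0011292 had 1.73, 2.09 and 1.51 CPM against 4.08, 4.63 and 5.79 CPM (log2 fold change 1.43 ± 0.28, SE). *Gm26623*, described as H2A.Z, had 10.999, 9.72 and 19.1 CPM against 5.84, 5.62 and 6.62 CPM and was lower (log2 fold change -1.13 ± 0.26, SE; adjusted p 0.00262, edgeR). These rows were looked up after the values of the named genes were seen, and how reads shared between a gene and its copies were counted was not tested.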
